A study of Mus musculus with 40 samples.

Results

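Hippocampal RNA of 6 DBA-rich mice carrying an APP transgene was compared with that of 4 inbred DBA mice without it. The 10 arrays were chosen by strain percentages, transgene label and array number, out of 40 arrays in the series. The labels call the inbred strain dba2, here DBA. The DBA-rich mice (arrays 17 and 24 to 28) were 75% DBA, 16% B6 and 9% SJL and are labelled APP Tg. The inbred mice (arrays 31, 32, 37 and 38) were 100% DBA and non-Tg. Each array held the hippocampus of 1 mouse aged 12 months. The labels name neither the transgene's line nor its promoter. Every Tg mouse differed from every inbred mouse in the transgene and also in the 25% of its background that was B6 or SJL, so the transgene and that background cannot be told apart. The Tg mice had log10 Abeta40 levels in the guanidine fraction of 3.86 to 4.60 (mean 4.16 ± 0.28, SD, n = 6), and the labels give no Abeta40 level for the inbred mice.

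An APP transgene adds amyloid precursor protein, from which secretases cut the Abeta peptides that aggregate into plaques in the ageing brain. Microglia and astrocytes near plaques are known to raise a set of genes that includes Trem2, Tyrobp, Cst7 and Gfap. Inbred mouse strains also carry different alleles at many genes, and a mouse of mixed background holds alleles of more than 1 strain on the same chromosome pair.

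The levels below are normalized log2 signals of single probes, where a difference of 1 is a doubling, and fold changes are between group means. Across the 10 arrays 41.5% to 49.1% of the 25697 probes were detected, which means a detection p of at most 0.01. A probe was tested if it was detected on at least 4 of the 10 arrays, which 12328 were. A difference counts as called where the adjusted p of limma's test across all tested probes was at most 0.05. The strain of some inbred arrays differed between the deposited tables. Arrays 31 and 32 are DBA in both tables, while 37 and 38 are DBA by array number and carry SJL labels in the other deposited table. With limma, arrays 31 and 32 differed from 37 and 38 at 0 of 12328 probes after adjustment and at 1170 at an unadjusted p under 0.05, and from the B6-numbered arrays 29 and 30 at 688 after adjustment. Arrays 37 and 38 differed from the SJL-numbered arrays 39 and 40 at 404 after adjustment. Arrays 29 and 30 are B6 by number and DBA in the other table, and 33 and 34 are SJL by number and B6 there, so the B6 and SJL levels below also rest in part on arrays whose strain differs between the tables. Counts of calls and the genes that carry them are therefore given again with the arrays on which both tables agree; all 75 called probes kept their sign that way, and 22 of them their call. Such a fit has 2 inbred arrays per strain in place of 4 and so less power, and a lost call need not mean a smaller change. Titles number the arrays in order, and 25 to 28 fall with 31 and 32 in 1 run of 8, a grouping inferred from the number and not named in the files.

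Defining markers of hippocampal cell types were present. Of 4 astrocyte markers all were detected on every array, as were 3 of the 3 oligodendrocyte markers on the array and 2 of 3 each for microglia, excitatory neurons, hippocampal fields and interneurons. Probes for Neurod6, Calb1 and Gad2 were detected on no array. The summed level of 4 choroid plexus markers ran from 11.70 to 15.58 over the Tg arrays and from 12.56 to 15.47 over the inbred arrays, so these markers of a neighbouring tissue varied widely within both groups. In pieces of whole hippocampus, fewer cells of a type and less RNA per cell cannot be told apart.

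Of the 12328 probes, 75 (0.608%) were called: 54 higher in the Tg mice (0.438%) and 21 lower (0.17%). The 75 probes held 67 named genes and 5 probes with no symbol. All 13 called probes with a change of over 2-fold were higher in the Tg mice, and 10 of them were probes of genes on chromosome 7. On that chromosome 22 of 852 tested probes were called (2.58%), against 48 of 10782 on all other chromosomes (0.445%). The groups did not overlap at 74 of the 75 called probes, and at 562 of all tested probes (4.56%). With arrays 31 and 32 as the inbred mice, 30 probes were called, 15 of them on chromosome 7. With the run of 8 as a block, 41 probes were called (0.333%), 22 of them among the 75.

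**Figure D1:**
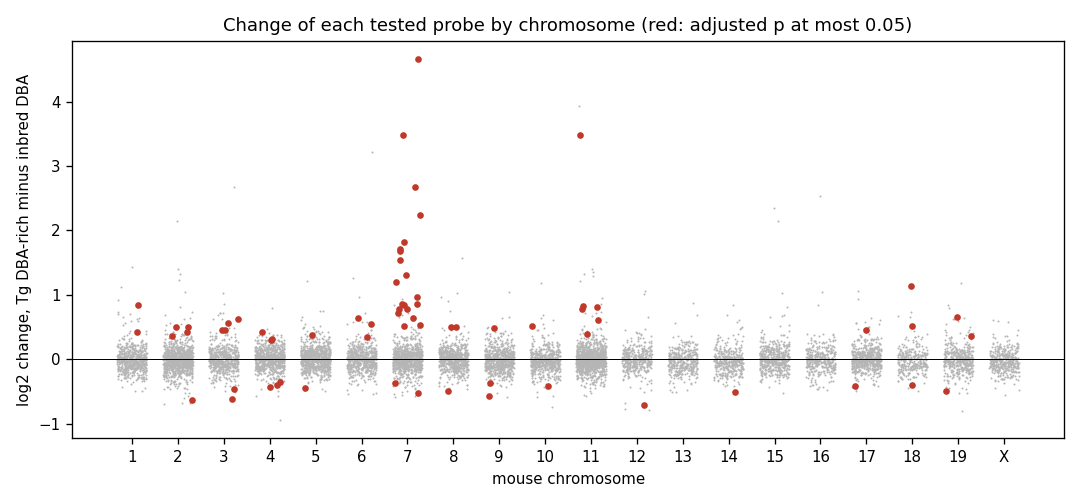
Each point is 1 tested probe, placed by chromosome (horizontal) and by its log2 change, Tg DBA-rich minus inbred DBA (vertical); red points had an adjusted p of at most 0.05 in limma's test. The 22 red points of chromosome 7 reach 4.67, and 20 of them lie above 0.

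The higher genes of chromosome 7 lay close together. In the order of the 651 tested genes of the chromosome in RefSeq (GRCm38.p6), the called higher genes ran from number 334, Sv2b, to number 491, Thumpd1. This stretch held 158 tested genes with 225 probes. In it 20 probes in 17 genes were higher and 1, for the aquaporin Aqp11, was lower, so 9.33% of its probes were called. Outside the stretch 1 of 627 probes of chromosome 7 was called (0.159%), that of Tnnt1. The stretch is bounded by its own called genes, so these shares are a description and were not tested. The median change of the stretch was 0.01, near that of all tested probes at -0.01. The stretch therefore did not move as a whole, and most of its 158 genes had no called probe.

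Thumpd1, whose protein helps acetylate transfer RNA, gave the largest change of all tested probes. Its level was 9.01 to 9.24 in the Tg mice (median 9.09), and 4.51, 4.43, 4.40 and 4.43 in the inbred mice on arrays 31, 32, 37 and 38. All 6 Tg mice were far above all 4 inbred mice, in which the probe was not detected. The log2 change was 4.67 ± 0.07 (SE; adjusted p = 3.89e-12, limma), and the Tg level was at least 10.7-fold higher. That bound, given for probes that arrays of the dimmer group did not detect, sets each array of that group at its lowest detected signal or the probe's own signal, whichever is higher. Inbred B6 and SJL mice, 4 arrays each, had mean levels of 9.99 and 9.99. The Tg mice thus stood between inbred DBA and both other strains, at 53.7% of the way on the linear signal scale.

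The stretch also held 2 called genes for ribosomal proteins. A probe of Rps3, a protein of the small subunit, read 11.50 to 11.88 in the Tg mice (median 11.65) and 8.08, 8.56, 7.99 and 8.13 in the inbred DBA mice. The groups were separate, and the probe was 11.2-fold higher in the Tg mice (log2 change 3.48 ± 0.11, adjusted p = 1.13e-08, limma). The second tested Rps3 probe did not show this: its mean was 10.21 in Tg and 10.26 in inbred DBA mice, with a change of -0.05 ± 0.08 (adjusted p = 0.819, limma). Rps15a, of the same subunit, read 9.06 to 9.24 in the Tg mice (median 9.12) and 6.98, 7.04, 6.71 and 6.85 in the inbred mice. It was 4.74-fold higher in the Tg mice (log2 change 2.24 ± 0.07, adjusted p = 1.34e-08, limma). Rps15a was not in the list of ribosomal protein genes; among its 11 tested members Rps3 was the only one called and the median change was 0.01.

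The stretch also held 3 called genes with mitochondrial products, all higher in the Tg mice. Mrpl48, a protein of the large mitochondrial ribosomal subunit, read 9.40 to 10.14 in the Tg mice (median 9.73) and 8.11, 7.92, 7.68 and 8.01 in the inbred mice. All Tg mice were higher, with a log2 change of 1.82 ± 0.16 (adjusted p = 0.000151, limma). Of the other Mrpl48 probes, 1 rose by 1.68 and 1 had a change of 0.30 (adjusted p = 0.128, limma). Coa4, a factor for assembly of cytochrome c oxidase, read 7.06 to 7.39 in the Tg mice (median 7.17) and 6.05, 6.26, 5.86 and 5.82 in the inbred mice, a log2 difference of 1.21 ± 0.10 (adjusted p = 6.78e-05, limma) and at least 2.23-fold, with detection on 2 of 4 inbred arrays. Tmem126b, which helps assemble respiratory complex I, rose by 0.86 ± 0.07 (adjusted p = 0.000105, limma), with every Tg mouse (7.49 to 7.76) above every inbred mouse (6.67 to 6.89). No member of the list of 14 tested respiratory chain genes was called, and the list's median change was 0.00.

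Ctsc, which encodes the lysosomal protease cathepsin C, rose at both of its probes. The brighter read 7.14 to 7.44 in the Tg mice (median 7.33) and 4.68, 4.70, 4.57 and 4.58 in the inbred mice, none of which had it detected. It was at least 3.06-fold higher (log2 change 2.67 ± 0.08, adjusted p = 6.29e-09, limma), and the dimmer probe, also undetected in the inbred mice, was at least 1.15-fold higher (measured log2 difference 1.31). With the earlier DBA-rich mouse on array 10 added, the brighter probe was not called (2.25, adjusted p = 0.0970, limma). Unlike Thumpd1, Ctsc was high in B6 (mean 8.20) and not in SJL mice (4.63). The Tg level was 47.2% of the way from DBA to B6. Tmem126b showed the same order, with means of 8.11 in B6 and 6.84 in SJL, and stood at 52.2% of the way to B6. It too was not called with array 10 added (0.63, adjusted p = 0.351, limma). Ctsc was not in the list of lysosomal genes, of whose 13 tested members 0 were called (3 at an unadjusted p under 0.05, which 15.7% of all tested probes had).

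Further genes of the stretch have varied roles. Ccp110, which caps centrioles, read 7.86 to 8.12 in the Tg mice (median 8.05) and 6.44, 6.43, 6.04 and 6.26 in the inbred mice, a rise of 1.71 ± 0.09 (adjusted p = 1.98e-06, limma), while its second probe had a change of 0.02 (adjusted p = 0.922). Rsf1, a chromatin remodelling factor, was not detected on any inbred DBA array and was at least 1.23-fold higher in the Tg mice (measured log2 difference 1.54 ± 0.09, adjusted p = 4.61e-06). Trim3, a ubiquitin ligase, rose by 0.84 ± 0.08 (adjusted p = 0.000288) at 1 probe, and its other 2 tested probes had changes of 0.21 and 0.13 (adjusted p = 0.187 and 0.632). Arrb1, which encodes beta-arrestin 1, was called at 2 of its 5 tested probes, which were detected on 0 and 1 of the inbred arrays (measured differences 0.97, with no bound above 1, and 0.85, at least 1.31-fold), and the other 3 had changes of 0.34, 0.32 and -0.03. Probes of 1 gene thus often disagreed in this stretch. Whether the probes' target sequences differ between the strains was not tested.

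Smaller rises in the stretch were those of Stard10, a lipid transfer protein (0.78 ± 0.09, adjusted p = 0.00249), and Pgap2, which remodels lipid anchors of membrane proteins (0.78 ± 0.12, adjusted p = 0.0164). Man2a2, a Golgi mannosidase that no inbred array detected, had a measured difference of 0.72 ± 0.06 with no bound above 1-fold (adjusted p = 0.000151), and Tmc7 rose by 0.64 ± 0.09 (adjusted p = 0.00715). Far1, which makes fatty alcohols for ether lipids, rose by 0.52 ± 0.09 (adjusted p = 0.0235). Sv2b, a synaptic vesicle glycoprotein, rose by 0.52 ± 0.08 (adjusted p = 0.0144). All p-values here are from limma. With arrays 31 and 32 as the inbred mice, Man2a2 and Sv2b were still called, and Stard10, Pgap2, Tmc7, Far1 and Aqp11 were not (adjusted p = 0.0554 to 0.111). Aqp11 fell by 0.36 ± 0.06 (adjusted p = 0.0188): it read 8.96 to 9.14 in the Tg mice and 9.39 to 9.47 in the inbred mice, and its means in B6 and SJL (8.77 and 8.84) were lower still.

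**Figure D2:**
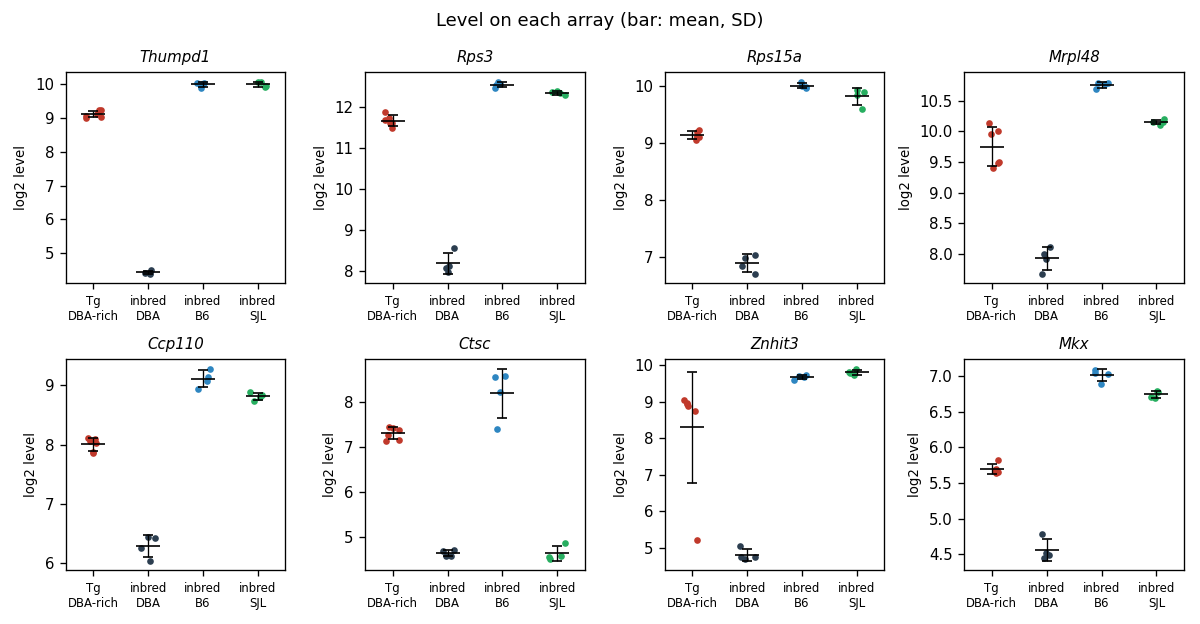
Normalized log2 level of 8 genes higher in the Tg mice on each array of Tg DBA-rich (n = 6) and inbred DBA, B6 and SJL mice (n = 4 each); bars are mean and SD. For 7 of them every Tg mouse lies between the inbred DBA mice and the B6 mean; for Znhit3 the mouse on array 25, at 5.21, lies near the inbred DBA mice.

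Away from chromosome 7 few changes were as large. Mkx, a homeobox gene on chromosome 18, read 5.64 to 5.82 in the Tg mice (median 5.68) and 4.52, 4.79, 4.49 and 4.45 in the inbred mice. It was detected on all Tg arrays and on no inbred array. The measured log2 difference was 1.13 ± 0.07 (adjusted p = 1.16e-05, limma), but the bound was only at least 1.00-fold, so the size of the difference is not known. Its B6 and SJL means were 7.02 and 6.74. Znhit3 on chromosome 11, which takes part in assembling small nucleolar particles, read 9.05, 8.88, 5.21, 8.93, 8.97 and 8.75 on arrays 17 and 24 to 28 and 4.70 to 5.06 in the inbred mice. The mice split: 5 of 6 were high and the mouse on array 25 was near the inbred level, so the log2 change was 3.48 ± 0.66 (adjusted p = 0.0450, limma), at least 6.09-fold. Rgs9, a regulator of G-protein signalling known from the striatum, rose by 0.81 ± 0.10 (adjusted p = 0.00374), while Aox3, an aldehyde oxidase undetected in the inbred mice, was at least 1.09-fold higher (adjusted p = 0.0334). With arrays 31 and 32 as the inbred mice, Znhit3, the first Arrb1 probe, Aox3 and Rgs9 were not called (adjusted p = 0.0785 to 0.186), while Thumpd1, Rps3, Ctsc, Rps15a, Mrpl48, Ccp110, Rsf1, Coa4, Mkx, Tmem126b and Trim3 were (adjusted p = 0.0116 or less, limma). Mean levels of Rgs9 were 8.75 in B6, 7.87 in SJL, 7.52 in DBA and 8.32 in the Tg mice.

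The genes lower in the Tg mice changed less, all by under 2-fold. Hsp90aa1, the inducible cytosolic heat shock protein 90, had the largest fall at its only tested probe, which was dim. It read 5.18 to 5.68 in the Tg mice (median 5.44) and 6.28, 6.22, 5.96 and 6.10 in the inbred mice. The groups were separate, though the probe was detected on only 3 of 6 Tg arrays. The measured log2 difference was -0.71 ± 0.10 (adjusted p = 0.00743, limma), at least 1.55-fold lower in the Tg mice, and the difference was -0.82 with the run as a block (adjusted p = 0.0465, limma). Of 11 tested heat shock genes it was the only one called. Hsph1 and Hspa8, both chaperones, had changes of -0.23 and -0.23 and were not called, and the list's median was -0.13. Arrays 31 and 32 held the highest value of 5 and 3 of the 11 genes, with medians 0.18 and 0.21 above the Tg median, while arrays 37 and 38 were at -0.06 and -0.02.

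Pdyn, the precursor of dynorphin that hippocampal granule cells make, read 5.66 to 5.88 in the Tg mice (median 5.77) and 6.28, 6.44, 6.27 and 6.63 in the inbred mice. It fell by 0.64 ± 0.08 (adjusted p = 0.00577, limma). Its brighter second probe had a change of -0.69 ± 0.14 (adjusted p = 0.0577, limma). Ghsr, the ghrelin receptor, read 5.16 to 5.54 in the Tg mice (median 5.46) and 6.01, 5.97, 5.81 and 6.24 in the inbred mice, a measured difference of -0.61 ± 0.10 (adjusted p = 0.0230, limma) and at least 1.42-fold, with detection on 3 arrays of each group. Its level in the Tg mice was near that of inbred B6 mice (5.43), and inbred SJL mice had 5.95.

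Sc5d, which makes the last double bond before cholesterol's final step, read 6.22 to 6.70 in the Tg mice (median 6.57) and 6.93, 7.13, 7.04 and 7.30 in the inbred mice. It fell by 0.56 ± 0.10 (adjusted p = 0.0343, limma), while 9 of the 11 tested cholesterol genes had positive changes, none of them called. Among these were Insig1, a regulator of sterol synthesis (0.55 ± 0.13, adjusted p = 0.0902), and Msmo1, a sterol methyl oxidase whose level split the Tg mice. Tnnt1, a troponin that the list used for thalamus, fell by 0.52 (adjusted p = 0.0403), and the other 8 tested thalamus genes were not called. Rorb, a nuclear receptor of cortical layer neurons, fell by 0.50 ± 0.10 (adjusted p = 0.0482). Smaller falls, from 0.52 to 0.41, were those of Cideb (lipid droplets), Pigk (lipid anchoring of membrane proteins), Ccz1 (late endosomes), Plpp3 (lipid phosphate breakdown), Ric8b (a G-protein chaperone) and Trerf1, with adjusted p-values from 0.0110 to 0.0482 in limma's test. Second probes of Pigk, Plpp3, Ric8b and Rorb were not called. Their changes were -0.10, -0.13, -0.30 and -0.28 (adjusted p = 0.501, 0.312, 0.0832 and 0.209, limma). The uncharacterised 2810004N23Rik fell by 0.50 and Trim32, a ubiquitin ligase, by 0.41. With arrays 31 and 32 as the inbred mice, Hsp90aa1, Pdyn, Cideb and Rorb were still called (adjusted p = 0.0371 or less, limma), and the other 10 named lower genes did not pass the test. Without array 28, Hsp90aa1, Pdyn, Ghsr, Ccz1 and Ric8b passed it. With the run of 8 as a block, Hsp90aa1, Cideb and Rorb were called, and the other 11 named lower genes, Pdyn and Ghsr included, were not (adjusted p = 0.0959 to 0.247, limma).

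**Figure D3:**
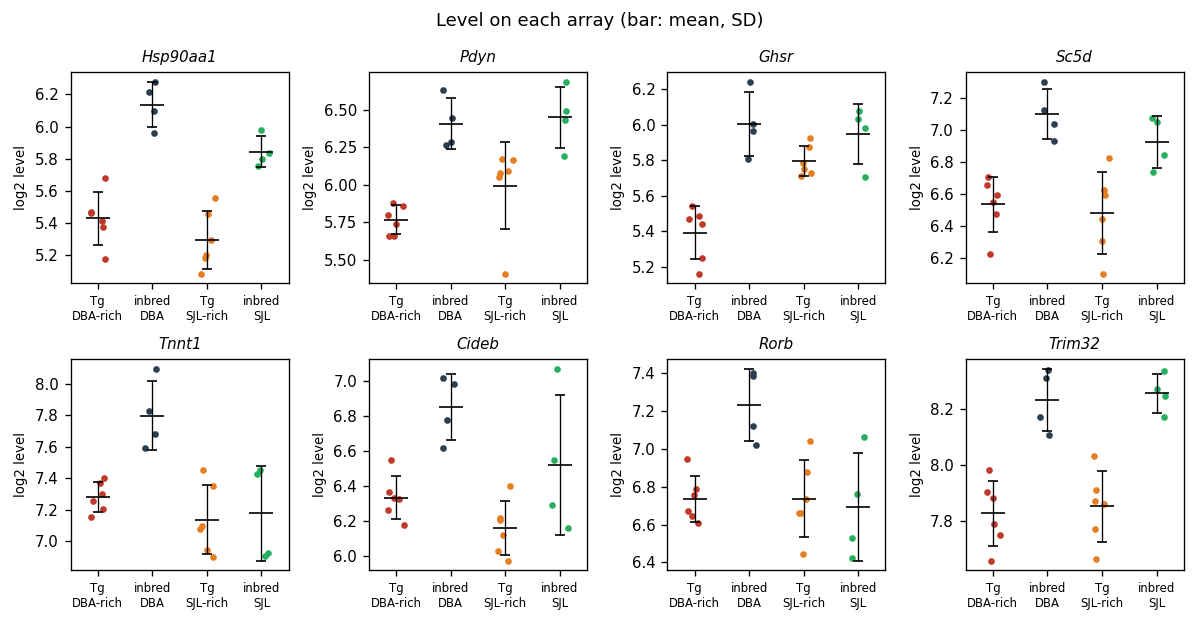
Normalized log2 level of 8 genes lower in the Tg mice on each array of Tg DBA-rich (n = 6), inbred DBA (n = 4), Tg SJL-rich (n = 6) and inbred SJL mice (n = 4); bars are mean and SD. The Tg DBA-rich mice lie below all inbred DBA mice in every panel; for Hsp90aa1, Pdyn and Trim32 the Tg SJL-rich mice also lie below all inbred SJL mice.

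Genes that respond around amyloid plaques were not called. Of 15 tested plaque-associated microglial genes 0 were called, where 0.608% of all tested probes were, and 1 had an unadjusted p under 0.05, against 15.7% of all. The list's median change was 0.03, and 0.04 with arrays 31 and 32 as the inbred mice. Trem2, a microglial lipid receptor, read 7.71 to 8.15 in the Tg mice (median 7.89) and 7.95, 7.70, 7.67 and 7.89 in the inbred mice. The groups overlapped, and the change was 0.10 with a 95% interval of -0.11 to 0.32 (adjusted p = 0.635, limma). Its partner Tyrobp had a change of 0.09 (-0.18 to 0.36), and probes for Cst7, Itgax and Clec7a did not reach the detection needed for testing. Gfap, the filament protein of reactive astrocytes, read 7.95 to 8.42 in the Tg mice (median 8.28) and 8.50, 7.92, 8.00 and 8.12 in the inbred mice, a change of 0.10 (-0.17 to 0.37, adjusted p = 0.729, limma). Serpina3n, another reactive astrocyte gene, had a change of -0.01 (-0.22 to 0.19). None of the 7 tested reactive astrocyte genes and 0 of 11 genes of resting microglia were called.

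The mouse App probe read 12.84 to 12.92 in the Tg mice (median 12.89) and 12.94, 12.84, 12.91 and 13.03 in the inbred mice, a change of -0.04 (-0.16 to 0.08, adjusted p = 0.732, limma). The sources used here do not say whether this probe reads the transgene's message, so it does not check the transgene label. Prnp had a change of 0.10 (-0.02 to 0.23). Of 16 tested genes of amyloid precursor processing 0 were called, where 0.608% of all tested probes were, and the median was -0.03. Bace1, the beta-secretase, had a change of -0.10 (adjusted p = 0.548). Apoe, the main lipid carrier of the brain, had a change of -0.06 (-0.23 to 0.11), and of 10 genes of Abeta clearance 0 were called.

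Over the 28 lists, which hold 430 genes of which 289 were tested, 2 genes were called higher (Rps3 and Rgs9) and 4 lower (Hsp90aa1, Sc5d, Tnnt1 and Rorb). Of all tested probes 0.438% were called higher and 0.17% lower. The other 23 lists had 0 called genes, neuronal, oligodendrocyte, vessel, kinesin and proteasome genes included. At the shares of all probes, lists this short would mostly hold no called gene, so a count of 0 says little about their members. Medians of those 23 lists ranged from -0.21 for immediate early genes to 0.61 for class II histocompatibility genes. Both of the widest medians came with uneven arrays. Fos, an early gene of neuronal activity, read 6.78 to 8.36 in the Tg mice and 8.53, 9.06, 7.34 and 7.15 in the inbred mice, so arrays 31 and 32 were high and the groups overlapped.

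The Tg mice did not share 1 level at genes that differ between the strains. On the inbred arrays 101 genes had a probe at which the DBA mice did not overlap the B6 and SJL mice and differed from them by at least 1 on the log2 scale; 74 were lower in DBA. Each Tg mouse was placed on the linear signal scale from 0% (inbred DBA mean) to 100% (mean of B6 and SJL). The inbred DBA arrays set the 0%, so these values share them with the contrast above and are given without a test. Genes below 20% numbered 53 in the mouse on array 17, 46 on array 24, 48 on array 25, 25 on array 26, 37 on array 27 and 36 on array 28. For genes at 20% or above, the median place was 46.2% to 51.9% in each of the 6 mice. Each mouse thus had 1 set of genes near the inbred DBA level or beyond it, another set near the middle, and at most 5 genes above 80%. Values below 20% include negative ones, which lie beyond the DBA mean on the side away from B6 and SJL. Some were large, such as -262% for H2-Q8 and -237% for H2-K1 on array 28. On the inbred DBA arrays themselves 95 to 97 of the 101 genes were below 20%.

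Within a chromosome, neighbouring genes of the 101 tended to be on the same side of 20% in the same mouse, in 379 of 492 comparisons (77.0%), against 51.7% for pairs on different chromosomes. The stretch of chromosome 7, chosen by its called genes and so only described here, held 11 of the 101 genes, and 65 of their 66 values lay between 20% and 80%, with a median of 51.1% and a range of 18.6% to 74.4%. All 11 were themselves called higher in the Tg mice, so these values in part restate those calls. Among the 90 genes elsewhere 244 of 540 values (45.2%) were below 20%. Rps15a stood at 57.0%, 51.0%, 48.7%, 51.2%, 51.7% and 55.4% on arrays 17 and 24 to 28, and Thumpd1 at 49.5% to 58.7%. All 6 mice were thus near the middle at both genes. With the genes and levels set by inbred arrays whose strain both tables share, 65 of 66 values again lay in that range. A DBA-rich Tg mouse that had no part in the comparison, on the earlier array 10, had 8 of the 11 genes between 20% and 80%, with a median of 32.3%, and 48 of 101 genes below 20%. In 3 Tg mice of 50% DBA background, on earlier arrays 14 to 16, 8 or 9 of the 11 genes lay in that range.

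**Figure D4:**
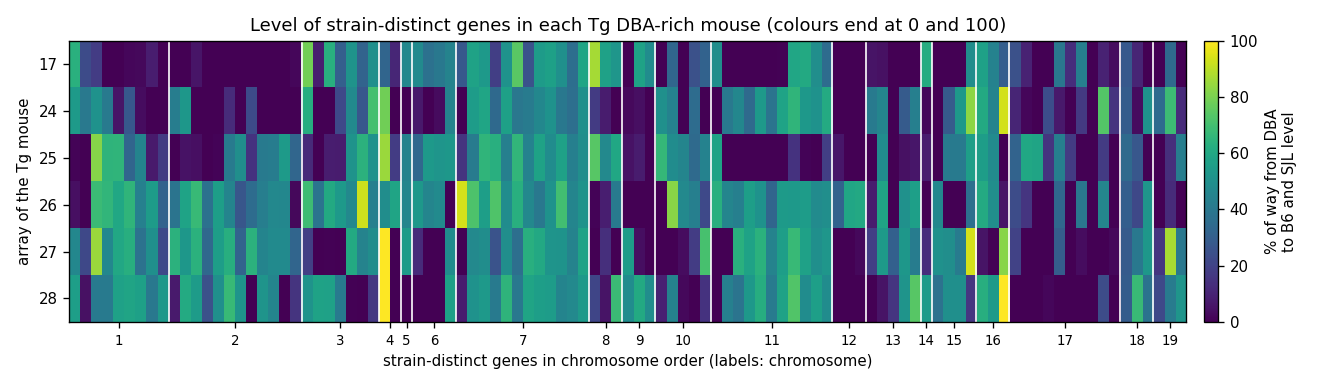
Each column is 1 of 101 strain-distinct genes in chromosome order and each row 1 Tg mouse; colour gives its place from 0% (inbred DBA mean) to 100% (mean of inbred B6 and SJL) on the linear scale. All rows are mid-coloured over most of chromosome 7, where 65 of 66 values of the stretch lie between 20% and 80%, while blocks elsewhere are dark in some mice and not in others.

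Outside chromosome 7, 2 of the 101 genes were at 20% or above in all 6 mice: Mkx, at 27.5% to 34.6%, and Sgip1, at 32.7% to 107%. Enpp5 and Eml4 were at most 0.23% and 14.9% in every mouse, and H2-Ea was the remaining gene below 20% in all 6. On array 28, though, H2-Ea was far from the inbred DBA level. It read 10.76 there against 5.46 to 7.67 in the inbred DBA mice, which placed it at -2131%. Between these extremes genes split the mice. Psmb6, a catalytic subunit of the proteasome, read 5.70, 10.80, 5.04, 10.72, 10.76 and 10.79 on arrays 17 and 24 to 28 and 5.49, 4.88, 4.94 and 4.84 in the inbred DBA mice. Mice on arrays 17 and 25 were at the inbred level and the other 4 were far above it. Its mean change of 3.93 was larger than that of Rps3, and with this split it was not called (adjusted p = 0.173, limma).

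Msmo1 read 9.55, 6.74, 9.70, 9.26, 6.95 and 9.86 on the same arrays and 6.79 to 7.37 in the inbred mice, so the mice on arrays 24 and 27 were at the DBA level. Sema5a, a semaphorin of axon guidance, was high in the mice on arrays 26, 27 and 28 (9.36 to 9.63) and low in the other 3 (6.47 to 6.94). Zfp365 was high on arrays 25 and 26 (10.86 and 10.85) and 5.89 to 6.18 on the rest. Klc1, a kinesin light chain, read 11.68 at 1 probe in the mouse on array 26 and 8.44 to 8.91 in the other 5 Tg mice, where the inbred DBA mice had 8.74 to 9.25. The next strain-distinct gene, Ppp1r13b, was at 60.4% in the same mouse and between -7.92% and 2.12% in the others. That mouse had the highest log10 Abeta40 of the 6, 4.60. With 1 such mouse no relation can be tested. All 5 tested Klc1 probes were uncalled, with changes from -0.14 to 0.30.

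The mouse on array 28 stood apart in immune genes. All 5 tested class II histocompatibility genes, 8 of 9 interferon-stimulated genes, 7 of 9 class I and peptide loading genes and 6 of 7 complement and Fc receptor genes were highest on this array among the 10. Cd74, the invariant chain of class II molecules, read 10.48 in this mouse, 5.88 to 6.71 in the other 5 Tg mice and 5.71 to 7.38 in the inbred mice. H2-Ab1 read 10.73 against 7.63 to 8.12, and B2m, the light chain of class I molecules, 12.79 against 10.80 to 11.48. Gbp2, a guanylate-binding protein induced by interferon gamma, read 11.38 against 7.33 to 7.77, and Cd274, the checkpoint ligand PD-L1, read 10.22 against 6.11 to 6.52. Oasl2, Ifit3 and Irgm1, all interferon-induced, read 8.01, 10.40 and 9.20 against at most 5.76, 8.98 and 6.38. A brighter Irgm1 probe showed a smaller gap, 12.29 against 10.91 to 11.65 in the other Tg mice and 11.74 to 11.89 in the inbred mice. C4b, a complement component known to rise in ageing and amyloid-bearing brain, read 10.14 against 9.08 to 9.36. None of these genes was called between the groups, and without array 28 the median changes of the class II, class I and interferon lists were -0.02, -0.11 and -0.05.

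The promoters of 3 genes that were high in this mouse are printed because interferon-stimulated genes are known for a shared element, searched on both strands as the letters GAAA, any 2 bases, and GAAA again. The windows run from 250 bases before to 50 after the start, from RefSeq on GRCm38.p6, all on the plus strand, with matches in capitals. They are Gbp2 at chr3:142620413-142620712, Ifit3 at chr19:34583279-34583578 and B2m at chr2:122147437-122147736.
Gbp2: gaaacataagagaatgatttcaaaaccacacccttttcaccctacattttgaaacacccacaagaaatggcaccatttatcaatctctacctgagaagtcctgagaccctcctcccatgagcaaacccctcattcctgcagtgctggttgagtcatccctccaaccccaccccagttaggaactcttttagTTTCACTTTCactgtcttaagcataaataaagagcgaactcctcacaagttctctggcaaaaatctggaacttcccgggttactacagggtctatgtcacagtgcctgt
Ifit3: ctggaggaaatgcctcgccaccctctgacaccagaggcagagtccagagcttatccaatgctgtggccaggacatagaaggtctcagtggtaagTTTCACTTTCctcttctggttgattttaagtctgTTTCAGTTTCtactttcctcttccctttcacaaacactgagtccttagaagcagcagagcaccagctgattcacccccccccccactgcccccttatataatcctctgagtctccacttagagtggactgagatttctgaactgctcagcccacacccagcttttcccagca
B2m: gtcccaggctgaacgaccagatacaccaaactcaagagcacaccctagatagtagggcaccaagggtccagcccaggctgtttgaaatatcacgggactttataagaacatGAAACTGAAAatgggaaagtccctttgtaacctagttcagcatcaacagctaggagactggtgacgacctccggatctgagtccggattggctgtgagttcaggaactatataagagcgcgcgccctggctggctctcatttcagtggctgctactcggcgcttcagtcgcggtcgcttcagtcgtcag
Gbp2 and B2m have 1 match each and Ifit3 has 2. The printed windows thus all hold a match, and Gbp2 is not in the lists counted next. Other genes high on array 28 had no match in their windows, among them H2-Eb1, Oasl2, H2-K1 and Irf9. Of 23 tested genes in the class I, class II and interferon lists, 18 had a window in the table. These genes had 22 windows, of which 7 held the element (31.8%), against 1131 of all 32851 windows (3.44%). The letters of the gamma-activated site, TTCNNNGAA, lay in 4 of the 22 windows (18.2%) and in 8.30% of all; they overlapped the first element in the windows of Bst2 and Ifitm3. A match is a run of letters and not a measured binding site.

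The same mouse had the lowest level of 9 of 11 choroid plexus genes among the 10 arrays. Ttr, transthyretin, read 11.57 in it and 14.75 to 15.45 in the other Tg mice, and 12.72, 15.31, 15.14 and 12.40 in the inbred mice. Aqp1 and Folr1 read 5.24 and 4.81 against 8.58 to 10.08 and 8.12 to 9.28. Arrays 31 and 38 were also low in the inbred group, so low choroid plexus levels occurred with and without high immune genes. Without array 28 the median change of the choroid plexus list was 0.74, against 0.28 with it, and none of its 11 genes was called either way. The part of choroid plexus tissue in the changes above was not tested. Of the 15 plaque-associated and 11 resting microglial genes, 4 and 2 were highest on this array among the 10. Aif1, a microglial and macrophage gene, read 9.07 against 7.92 to 8.33 in the other Tg mice, Cd52 8.23 against 6.47 to 7.29 and Csf1 6.49 against 5.52 to 5.97, while Trem2 read 8.07 against 7.71 to 8.15.

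**Figure D5:**
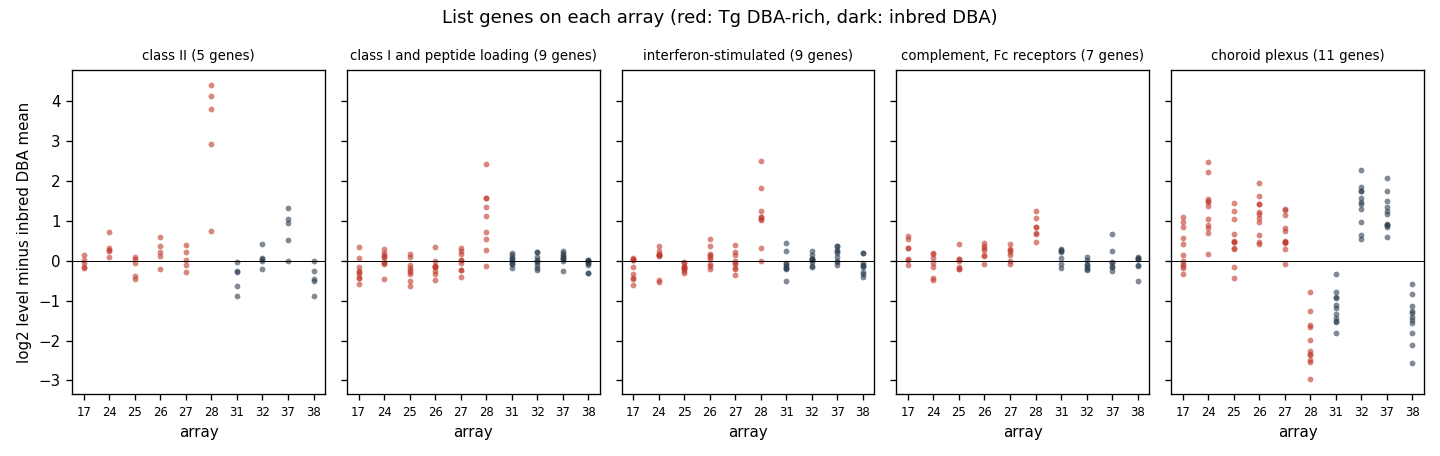
Each point is 1 gene on 1 array, as its log2 level minus the mean of the 4 inbred DBA arrays; panels are 5 gene lists, red points Tg DBA-rich and dark points inbred DBA arrays. On array 28 all 5 class II genes and most class I and interferon genes lie above the other arrays, while choroid plexus genes lie low on arrays 28, 31 and 38.

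The Tg contrast could be set against a pair on another background that shares no array with it: 6 Tg SJL-rich mice (69% SJL and 31% B6, arrays 18 to 23) and 4 inbred SJL mice. In that pair 1559 of 13077 probes were called (11.9%), 919 of them lower in the Tg mice. By the grouping inferred from array numbers, its 6 Tg arrays fell in 1 run of 8 and its 4 inbred arrays in another. Transgene, background and run therefore cannot be told apart in that pair, which also limits the shared genes and the interaction below. Between 47.4% and 50.0% of probes were detected on its Tg arrays, and 43.2% to 43.9% on its inbred arrays. Of the 75 called probes of the DBA pair, 62 had the same sign there and 14 were also called with the same sign, which is 18.7% of the DBA pair's calls and 0.898% of the SJL pair's. Over all tested probes 66.6% had the same sign in both pairs. With the run of 8 as a block in the DBA pair, 1 of the 14, Hsp90aa1, was still called there. With arrays 31, 32, 39 and 40 as the inbred mice, 267 probes were called in the SJL pair, and 0 of the 14 were called in both pairs. Hsp90aa1 fell in both, by 0.71 in the DBA pair and 0.55 in the SJL pair (adjusted p = 0.00689, limma). Trim32 fell by 0.41 and 0.40, though its second probe had a change of 0.04 in the DBA pair. Acsbg1, a fatty acid activating enzyme, fell by 0.37 and 0.52. The 11 shared rises included Dctn1, a subunit of the dynactin motor complex (0.55 and 0.52), Pomt1, which adds mannose to dystroglycan (0.50 and 0.49), Stx3, a membrane fusion protein (0.66 and 0.47), and Adam11 (0.61 and 0.66). No inbred DBA array detected Pomt1, Stx3 or Adam11, so their differences there are measured values near background; the bound for Stx3 was at least 1.24-fold, and the others had none above 1-fold.

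The difference between the pairs was tested as an interaction, which called 20 of 13077 probes (0.153%; 1499 at an unadjusted p under 0.05). In 13 the Tg change was higher in the DBA pair, and 13 of the 75 called probes were among the 20. With arrays 31, 32, 39 and 40 as the inbred mice it called 51, of which 17 were among the 20. Thumpd1 changed by 4.67 in the DBA pair and 0.05 in the SJL pair, and the difference was 4.62 ± 0.09 (adjusted p = 7.48e-18, limma). Rps3, Rps15a, Ccp110, Mrpl48, Rsf1, Coa4 and Trim3 of the same stretch and Mkx also differed, by 0.96 to 3.48. In the other direction single probes of Tmem68, Cops8, Tgs1 and Zbtb18 rose in the SJL pair, by 1.50 to 5.21, and were not called in the DBA pair. Another Tgs1 probe changed by only 0.14 in the SJL pair (adjusted p = 0.234, limma). Other Zbtb18 probes did not rise with the first: their changes there were -0.56, -0.36, -0.24 and 0.03. Those at -0.56 and -0.36 were called lower (adjusted p = 0.00811 and 0.0374, limma). Gfap and Trem2, which rose by 0.57 and 0.64 in the SJL pair (adjusted p = 0.0107 and 0.00463), had changes of 0.10 and 0.10 in the DBA pair. The differences, -0.47 and -0.53, did not pass the test (adjusted p = 0.304 and 0.169, limma). Gpnmb, a glycoprotein of microglia, did differ between the pairs (-1.05 ± 0.19, adjusted p = 0.0159): in the DBA pair its change was 0.17 (adjusted p = 0.547).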

How the data were processed

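Illumina 1-colour bead arrays measured RNA from the hippocampus of 40 mice, each on its own array. The authors deposited probe intensity values that are not normalized, with each detection p-value stored as its complement to 1, and separate normalized values. Scanner software and its settings are not given in the sources used here. Arrays were assigned to mice by the running number in their titles. Intensities of all 40 arrays were background-corrected and quantile-normalized together with limma's neqc (offset 16) and put on a log2 scale. A probe entered the test where 4 or more of the 10 arrays detected it (p of 0.01 or less); lmFit and eBayes were used with Benjamini-Hochberg adjustment (R 4.3.3, limma 3.58.1, statmod 1.5.0 and version 1.17.8 of data.table). The number of arrays limits the precision. The fits were tested on simulated data. In these each changed probe shifted equally on all Tg arrays, so mice that split at a gene were not simulated.

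Probe symbols came from the platform annotation: 23978 of the 25697 probes had 1 symbol and 1719 had none. Gene order and promoters came from RefSeq (GRCm38.p6). Genes were named by rule: the 14 highest and 14 lowest called probes with groups that do not overlap, 4 each way within the run of 8, a fixed set around App and glia, up to 3 per list, 8 with the widest spread in the Tg mice, and 4 each way in the interaction. Other genes of the chromosome 7 stretch, the genes shared with the SJL pair and the genes that split the mice were picked for the text with their values in view. The members and lists were chosen with earlier results of these data known. Alternatives covered scaling, filters, runs as blocks, array weights, the study's thresholds, the deposited normalized table and leaving out each array.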

Additional observations from a re-analysis of the deposited data

Results flagged for a closer look

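Of 256 groups of named probes examined, 32 had 1 array far from the others of its group; chance gives about 1 in 20. The probes examined include 8 named only for their wide spread in the Tg mice, which makes outlying arrays more likely; without them 25 of 240 groups had one. Many of these were on array 28. It was high for H2-Ea (10.76), H2-Ab1 (10.73), Cd74 (10.48), Psmb10 (11.41), C4b (10.14), Ifit3 (10.40), Oasl2 (8.01) and Irf9 (8.22). It was also high for Irgm1 (9.20 at its dimmer probe), Irgm2 (10.17), Gbp2 (11.38), Gbp3 (9.44) and Cd274 (10.22), and low for the choroid plexus genes Ttr (11.57), Aqp1 (5.24) and Folr1 (4.81). The mouse on array 26 was high at 3 Klc1 probes (12.48, 11.68 and 10.44). The mouse on array 25 was low for Znhit3 (5.21) and Rgs9 (7.97) and high for Mkx (5.82). Array 17 was low for Mapk8ip1 (11.69) and array 27 for Kcnj9, a potassium channel (6.46). Among the inbred DBA mice, array 31 was high for Selplg (8.44), Hspa8 (15.25) and Psmb6 (5.49) and low for Irgm1 (5.95). Array 37 was high for Ifit3 (8.94) and low for Plau (5.14) and Sema5a (7.02), and array 38 was high for Osmr (6.27).

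Of the named probes, 14 had Tg changes that differed between the DBA and SJL pairs in limma's interaction test. The change in the DBA pair minus that in the SJL pair was 4.62 for Thumpd1, 3.48 for Rps3, 2.23 for Rps15a, 1.76 for Ccp110 and 1.71 for Mrpl48. It was 1.25 for Rsf1, 1.18 for Coa4, 1.07 for Mkx and 0.96 for Trim3. It was -5.48 for Tmem68, -5.05 for Cops8, -2.28 for Tgs1, -1.75 for Zbtb18 and -1.05 for Gpnmb.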

How the results depend on the processing

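The count of 75 called probes became 267 with 24 later arrays in the fit, 123 with a trended and robust fit, 41 with the runs as a fixed block and 37 with the earlier DBA-rich array added. It was 30 for arrays 25 to 28 against 31 and 32, and 30 with the inbred arrays that both tables call DBA. At the study's thresholds of 0.001 and 1.5-fold it was 9 by the methods' test and 14 by limma. Leaving out 1 array gave 33 to 80, with 33 without array 31, 36 without array 32, 36 without array 38 and 41 without array 28. Median scaling gave 101, of which 3.96% were lower against 28% in the reported fit; it moved the median of all probes to 0.09. The count of 22 called on chromosome 7 became 5 with the deposited normalized table (0 of them among the 22), 14 with probes detected on all 10 arrays, 14 with the earlier array, 13 within the run, and 7 and 12 at the study's thresholds by the methods' test and limma; leaving out 1 array gave 17 to 23. The interaction's 20 became 54 with 24 arrays, 11 with probes detected on all 20 arrays, 250 with the normalized table (4 of them among the 20) and, chosen after seeing the data, 51 with the inbred arrays on which both tables agree; leaving out 1 array gave 17 to 47, highest without array 17. In the normalized table the DBA labels fall on the signals of arrays 29 to 32 and the SJL labels on those of 37 to 40 (correlation 1). That setting thus has other inbred groups than the reported fit, in the counts above too. With it Mkx had a change of -0.10 and Tnnt1 of 0.017, and the parts of labels and processing in these values were not tested separately. Quantile normalization without background correction, with strains assigned by array number, called 68 probes, 67 of them among the 75. On chromosome 7 it called 21, and 21 of these were among the 22. Of 29 named called probes, 27 kept their sign in every setting, the normalized table included, and 0 kept their call in every setting. No paired analysis was possible because replicate numbers only name the mice. Dim probes such as Hsp90aa1 and Ghsr lie near background.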
